A study of Mus musculus with 8 samples.

Results

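Very long genes are taken here as autosomal protein-coding genes whose RefSeq span in the mouse build mm10 exceeds 500000 bp. Of 20665 autosomal protein-coding genes, 216 passed this threshold. Rora, Foxp1, Rad51b, Immp2l, Pde4d, Cacna1c and Trappc9 were set apart by name, 6 of them over the threshold, which left 210 genes. Of these, 208 are described and 2 were not analysed here. Their spans ran from 501.8 kb (Edil3) to 2270.5 kb (Ptprd) with a median of 735 kb, 53 exceeded 1 Mb, and together they occupied 7.14% of the autosomes.

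All libraries came from regulatory T cells (Treg) of C57BL/6 mice aged 8 to 12 weeks. H3K9me2 was profiled by CUT&RUN in tumour Treg, with 3 libraries of the genotype JMJD1CWT (WT) and 3 of JMJD1CTregcKO (cKO), a conditional knockout of Jmjd1c in Treg. Open chromatin was profiled by ATAC-seq in 1 library of tumour Treg and 1 of spleen Treg, both labelled JMJD1CWT. The labels name neither the Cre driver nor the tumour model, and give no animal of origin, so replicates may differ for technical reasons only. Each deposited file is a list of peaks called in its library alone. The peak lists do not show whether Jmjd1c was deleted.

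H3K9me2 libraries held 24774509 to 30313851 tags and gave 109589 to 178201 peaks. The library cKO 1 had the fewest tags and the most peaks, and the names in the file headers give cKO 1 and cKO 3 the same knockout number. Over the autosomes, peaks covered 5.41%, 4.52% and 3.69% in cKO 1 to 3 and 3.85%, 4.09% and 3.39% in WT 1 to 3. The ATAC libraries held 11293674 tags with 27625 peaks of 322 bp in tumour and 11068821 tags with 13078 peaks of 869 bp in spleen. ATAC peaks at the gene or within 5 kb of it were found for 9 of 10 Treg and T cell markers in each tissue (Ctla4 had 0), for 0 of 4 CD8 T and NK markers, and for 3 of 5 myeloid and 3 of 5 neuronal markers in tumour against 0 of 5 of each in spleen. Among these, Itgam, Spi1, Cd14, Map2, Rbfox3 and Tubb3 had tumour peaks, and Lyz2, Csf1r, Snap25 and Syt1 had 0. B cell markers had peaks at 2 of 5 genes in each tissue, melanocyte and epithelial markers at 2 and 1 of 5, and stromal and endothelial markers at 2 and 3 of 5.

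Most of the span of such genes is intron, and transcription of one gene takes hours. Many encode adhesion molecules, receptors and channels of neurons, which T cells have little use for, while a minority serve signalling and the cytoskeleton in lymphocytes. H3K9me2, the dimethylation of lysine 9 on histone H3, marks silent chromatin. Methyltransferases such as G9a and GLP deposit it, and demethylases of the JMJD1 family, which includes the product of Jmjd1c, can remove it. ATAC-seq uses a transposase that inserts into open DNA, so its peaks mark promoters and enhancers in use.

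Open chromatin was sparse in the very long genes. Across the 208 genes, 292 tumour ATAC peaks gave 0.166 per 100 kb of span (95% exact Poisson interval 0.147 to 0.186), and 200 spleen peaks gave 0.114 (0.0984 to 0.130). As 5 of the genes overlap another of them, a peak inside both was counted for each, and 277 and 191 peaks were distinct. Genes of 250 to 500 kb had 0.750 and 0.351 peaks per 100 kb, and all autosomal protein-coding genes had 1.94 and 1.10. The tumour density decreased from class to class with length, from 8.87 under 10 kb through 3.75, 2.25 and 1.45. These intervals cover counting error only, and 1 library per tissue gives no replicate check.

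**Figure D1:**
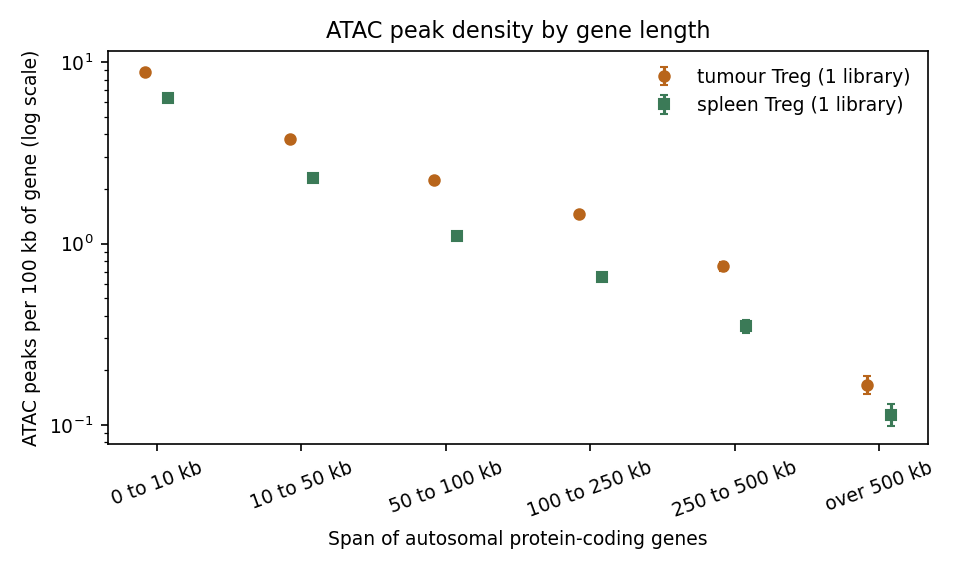
ATAC peaks per 100 kb of gene span (log axis) for 6 length classes of autosomal protein-coding genes in tumour and spleen Treg, with 95% Poisson intervals that are smaller than the symbols in most classes. Density falls with length in both libraries and is lowest over 500 kb, at 0.166 in tumour and 0.114 in spleen.

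The sequence around the genes was richer in open chromatin than the genes. The 250 kb on either side, outside any very long gene, held 0.805 tumour and 0.406 spleen peaks per 100 kb, counted by peak centre. Counted the same way, the genes held 279 tumour and 188 spleen peaks, or 0.158 and 0.107 per 100 kb, so the flanks had 5.08 and 3.801 times the density. The ratio of tumour to spleen peaks was 1.46 in the very long genes, 2.14 in genes of 250 to 500 kb and 2.11 over the autosomes. Peak width and the share of tags in peaks (11.03% in tumour, 4.77% in spleen) differed between the libraries, and their part in these ratios was not tested, nor was that of the myeloid and neuronal markers. With the tumour list shortened to its strongest peaks, as many as in spleen, the very long genes had 0.0460 tumour peaks per 100 kb, below the spleen value, so which tissue is higher depended on list length. Of the distinct tumour peaks in these genes 28.9% touched a spleen peak, against 40.3% of autosomal tumour peaks, and in the other direction the shares were 44.5% and 84.9%. The median peak score, in tags, was 17 against 26 over the autosomes in tumour and 18.5 against 26.5 in spleen.

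Peaks were concentrated in a few genes. Neither library had a peak in 78 of the 208 genes, 65 had a peak in both, 24 in tumour only and 41 in spleen only. The 10 genes with most peaks held 38.7% of the tumour peaks. Densest in tumour was Elmo1, which encodes a partner of DOCK proteins in Rac activation, with 12 peaks or 2.32 per 100 kb. The cyclic AMP phosphodiesterase gene Pde4b had 11 peaks (2.12 per 100 kb), and the transcription factor gene Nfia also had 11 (2.03). Inpp4b, a phosphatase of the phosphoinositide pathway, had 16 peaks (2.02), the sialyltransferase gene St6galnac3 had 9 (1.71), and Arhgap26, which encodes a GTPase-activating protein, had 13 (1.68). Wwox, a tumour suppressor gene at a common fragile site, had 15 (1.64), and the focal adhesion gene Lpp had 9 (1.502). In spleen the same 8 genes had 2 to 7 peaks each. At the other end, the 3 longest genes with no peak in either library were the phosphatase gene Ptprd, the lipoprotein receptor gene Lrp1b and Csmd1, which encodes a complement regulator.

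Of the 4 highest-scoring tumour peaks, 3 touched a gene end. The strongest tumour peak touched the end of Zbtb20, a zinc finger repressor gene, with a score of 283 and rank 18 of the tumour list, and it was also the strongest in spleen (237.5, rank 11). Arhgap26 had an internal peak with a score of 216, Dlg2, a synaptic scaffold gene, one at its end with 194.5, and Wwox one at its end with 146. Along the 162 genes with a strand in the RefSeq promoter table, cut into 10 parts of equal length each, the first and last part held 40 and 38 tumour peaks, and the parts between them 11 to 29. In the first 2 kb the tumour density was 4.01 per 100 kb, followed by 0.540 from 2 to 10 kb and 0.247 from 10 to 50 kb.

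Promoters show which of these genes carried an open start. The RefSeq promoter table (GRCm38.p6) lists 259 promoters, each with 250 bases before and 50 after a start, for 162 of the 208 genes. An ATAC peak touched 28 of them (10.8%), in 25 genes, against 42.8% of the 21263 promoters of all protein-coding genes. The 250 bases before the start are printed for 5 genes, chosen after their values were seen, to contrast open starts in genes used by lymphocytes with starts that had no peak in neuronal genes. All run 5′ to 3′ along the gene's own strand, with each CG dinucleotide in capitals. Rabgap1l (chr1:160792939-160793188, minus strand), Arhgap15 (chr2:43748574-43748823, plus) and Lpp (chr16:24393100-24393349, plus) had a tumour peak at the promoter, and the first and second also a spleen peak. Ctnna2 (chr6:77979668-77979917, minus) and Lrrc4c (chr2:96317919-96318168, plus) had none.
Rabgap1l: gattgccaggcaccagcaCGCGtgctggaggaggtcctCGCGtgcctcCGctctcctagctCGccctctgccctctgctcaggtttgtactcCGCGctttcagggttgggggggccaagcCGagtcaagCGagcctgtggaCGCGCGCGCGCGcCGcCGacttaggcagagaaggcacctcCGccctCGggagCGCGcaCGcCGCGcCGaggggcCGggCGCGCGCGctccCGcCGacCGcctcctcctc
Arhgap15: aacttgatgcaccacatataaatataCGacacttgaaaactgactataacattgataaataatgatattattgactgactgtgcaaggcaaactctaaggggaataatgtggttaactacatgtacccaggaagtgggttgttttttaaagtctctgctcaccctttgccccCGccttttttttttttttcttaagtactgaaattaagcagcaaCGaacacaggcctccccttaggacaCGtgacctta
Lpp: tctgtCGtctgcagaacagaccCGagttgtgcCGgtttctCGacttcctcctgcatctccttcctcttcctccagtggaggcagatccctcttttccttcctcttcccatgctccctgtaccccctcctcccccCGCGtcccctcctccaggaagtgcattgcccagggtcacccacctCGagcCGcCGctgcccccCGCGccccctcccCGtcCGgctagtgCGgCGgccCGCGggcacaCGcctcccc
Ctnna2: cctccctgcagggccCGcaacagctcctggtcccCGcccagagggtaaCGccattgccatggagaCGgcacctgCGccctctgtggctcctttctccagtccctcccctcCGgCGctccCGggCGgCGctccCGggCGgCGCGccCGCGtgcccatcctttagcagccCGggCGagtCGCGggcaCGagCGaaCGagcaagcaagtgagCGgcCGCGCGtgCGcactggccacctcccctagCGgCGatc
Lrrc4c: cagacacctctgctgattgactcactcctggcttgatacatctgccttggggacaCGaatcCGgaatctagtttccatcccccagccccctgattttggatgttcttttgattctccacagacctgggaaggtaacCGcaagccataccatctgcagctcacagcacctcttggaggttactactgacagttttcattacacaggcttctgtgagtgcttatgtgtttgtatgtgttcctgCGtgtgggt
The printed bases hold 34 CG in Rabgap1l, 4 in Arhgap15, 18 in Lpp, 30 in Ctnna2 and 4 in Lrrc4c. CG-rich and CG-poor starts therefore stood on both sides. Over whole 300-base promoters of very long genes, the median was 20.5 CG (range 2 to 45) in the 28 with a peak and 10 (0 to 54) in the 231 without, and 13 in all protein-coding genes. Motifs were searched by letters on both strands, each on its own, with overlaps between motifs left in. The ETS core CCGGAAG was in 2.32% of the very long genes' promoters and 11.6% of all promoters. The RUNX motif TGTGGT, found in the printed Arhgap15 promoter, was in 12.0% and 14.97%, and the AP-1 motif TGANTCA, found in that of Lrrc4c, in 5.79% and 6.99%. A match here describes letters and is not evidence of binding.

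In WT Treg the very long genes carried H3K9me2 peaks at about the level of the autosomes. Peaks covered 4.18%, 3.83% and 3.15% of their summed span in WT 1 to 3, a mean of 3.72 ± 0.525% (SD, n = 3), against 3.78 ± 0.356% over the autosomes. Divided by the autosomal value of the same library, this relative coverage was 1.09, 0.935 and 0.928. Relative coverage was 0.644 ± 0.155 in genes under 10 kb and 1.04 ± 0.00572 in genes of 250 to 500 kb. WT coverage did not follow length within the very long genes (Spearman's correlation 0.0234 across 208 genes) or the density of tumour ATAC peaks (0.0543), a description across genes that share the same libraries.

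Single genes differed widely in WT. Among the highest were the exocyst gene Exoc4, with 8.81%, 7.74% and 7.33% in WT 1 to 3 (7.96 ± 0.761%), the transcription factor gene Sox6 (7.76 ± 0.590%), the nuclear receptor gene Esrrg (7.61 ± 0.789%), Tmem132d (7.58 ± 0.717%) and Thsd4 (7.44 ± 0.804%). Neighbours in this order lay within one another's spread. The 6 lowest were the glutamate receptor gene Grm8 (0.351 ± 0.284%), the transcription factor gene Foxp2 (0.395 ± 0.219%), Malrd1 (0.481 ± 0.417%, with no peak in WT 3), the phospholipase gene Plcb1 (0.650 ± 0.101%), Edil3 (0.779 ± 0.717%) and the atypical cadherin gene Fat3 (0.882 ± 0.426%). These 6 had few ATAC peaks or none: Grm8 and Edil3 had 0, Foxp2 had 1 in tumour, and Malrd1, Plcb1 and Fat3 had 1, 3 and 2 in spleen only. Such low numbers were usual, as 78 of the 208 genes had 0 and 72 had 1 to 2 over both libraries. The order of the 208 genes was alike in libraries of one genotype. Spearman's correlation was 0.866 to 0.877 within WT and 0.786 to 0.831 within cKO, and 0.602 to 0.746 between a cKO and a WT library.

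Inside the genes, H3K9me2 peaks were scattered over the whole span. Of 3393 windows of 50 kb, 1445 (42.6%) held peaks in all 6 libraries and 302 (8.90%) in no WT library, and the median window had 3.36% in WT with the middle 80% between 0.334% and 7.62%. The first 2 kb after the start had low coverage, 1.46 ± 0.698% in WT and 1.67 ± 0.741% in cKO. From 2 to 10 kb it was 3.90%, 3.88% and 2.68% in WT 1 to 3 and 6.02%, 4.84% and 4.31% in cKO 1 to 3, and the groups did not overlap. From 250 to 500 kb into the gene the values were 3.83 ± 0.534% and 4.18 ± 1.09%. The last 5 of 10 equal parts of the span had more coverage than the first 5 in 6 of 6 libraries, by 0.156 to 0.418 percentage points.

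The comparison of cKO with WT asked whether loss of the demethylase changed H3K9me2 over these genes. Their summed span was covered to 5.26%, 3.62% and 3.17% in cKO 1 to 3 and 4.18%, 3.83% and 3.15% in WT 1 to 3. The groups overlapped, and the means of 4.01 ± 1.10% and 3.72 ± 0.525% differed by 0.294 percentage points, less than the spread. cKO 1 alone lay above all WT libraries, and without it the difference was -0.327. In genes of 250 to 500 kb the difference was 0.975, in those of 100 to 250 kb 1.28, in those of 50 to 100 kb 1.32 and over all autosomal genes 1.02. Relative to the autosomes of the same library, the very long genes had 0.971, 0.799 and 0.858 in cKO 1 to 3 and 1.09, 0.935 and 0.928 in WT 1 to 3, a difference of -0.107. In the 5 shorter classes this relative difference was between 0.0402 and 0.157. Their flanks of 250 kb had 4.60 ± 1.06% in cKO and 4.04 ± 0.427% in WT, a relative difference of -0.0602.

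No single gene passed a test. With limma fitted over 16342 protein-coding genes with a mean of 1% or more, 0 genes (0%) had a Benjamini-Hochberg adjusted p under 0.05. Among the 207 very long genes tested, the lowest limma adjusted p was 0.650. By unadjusted p under 0.05, 887 genes (5.43%) were higher and 86 (0.526%) lower in cKO, and of the very long genes 1 (Smyd3) and 0. Grm8, with a mean under 1%, was not tested. When the spread was modelled on gene length, an alternative added after the data were seen, 10 very long genes were higher (4.83%, against 8.35% of all genes tested) and 5 lower (2.42% against 1.01%) at an unadjusted p under 0.05. With relative coverage in that model, 9 were higher (4.35% against 4.66%) and 39 lower (18.8% against 2.49%), and the lowest limma adjusted p was 0.301.

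The cKO and WT libraries did not overlap at 33 very long genes with higher coverage in cKO (15.9%, against 11.0% of all genes tested) and 5 with lower (2.42%, against 1.13%). The 5 were Adgrb3, Adgrl3, Lrrc4c, Naaladl2 and Ptprd. After division by each library's autosomal coverage the counts were 21 higher (10.1%, against 7.86%) and 43 lower (20.8%, against 2.86%). Of the 461 genes of 250 to 500 kb that were tested, 23.9% were higher and 0.651% lower in percent values. Against this nearest class, fewer of the very long genes were higher and more were lower. In relative coverage the 461 genes had 13.2% higher and 6.51% lower. Leaving out a library loosens the criterion. Without cKO 1 the percent values gave 34 higher (16.4%, against 17.3% of all genes) and 45 lower (21.7%, against 3.36%). Without cKO 3 they gave 77 higher (37.2%, against 21.7%) and 5 lower (2.42%, against 1.71%). Without WT 2 there were 53 higher (25.6%, against 18.5%) and 5 lower (2.42%, against 2.17%), and without WT 3 35 higher (16.9%, against 15.4%) and 20 lower (9.66%, against 3.16%). The relative values without cKO 1 gave 65 lower (31.4%, against 4.63%). Their higher count became 41 without cKO 2 (19.8%, against 11.4%), 35 without WT 1 (16.9%, against 10.4%) and 33 without WT 2 (15.9%, against 13.6%). With lists of equal length, 26 were higher (12.6%, against 2.45%) and 7 lower (3.38%, against 1.87%). With the stronger 50% of each list, 33 were higher (15.9%, against 3.71%) and 4 lower (1.93%, against 0.594%). Both shortened lists were still compared over all 16342 genes. A mean of 1% was then reached by 12699 genes with lists of equal length and 5386 with the stronger 50%. Among the very long genes, 207 and 200 reached it. Genes left without coverage cannot meet the criterion, so these shares of all genes are not a like comparison.

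**Figure D2:**
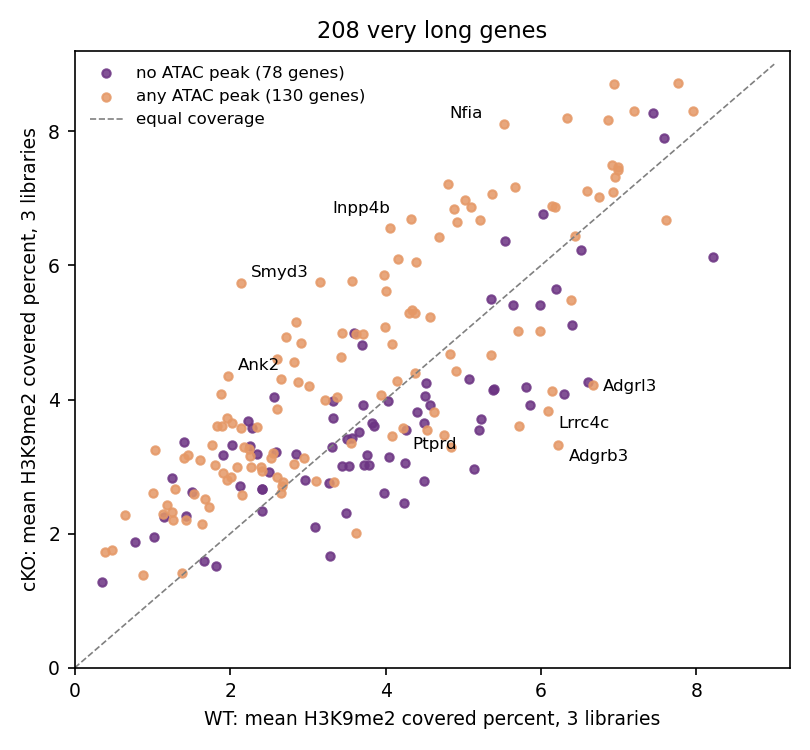
Mean H3K9me2 covered percent of each of the 208 genes in cKO (vertical) against WT (horizontal), 3 libraries each, coloured by whether either ATAC library had a peak in the gene. Points above the dashed line have more coverage in cKO; 107 of the 130 genes with a peak and 31 of the 78 without lie there.

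Very long genes with no ATAC peak in either library (78) were then set against those with any (130). In WT the classes differed in H3K9me2 by less than the spread between libraries, and in each cKO library the genes with no peak had less. With no ATAC peak, H3K9me2 covered 4.84%, 2.998% and 2.81% in cKO 1 to 3 and 4.46%, 3.90% and 3.11% in WT 1 to 3. Genes with any ATAC peak had 5.501%, 3.99% and 3.38% in cKO and 4.01%, 3.78% and 3.17% in WT. The difference, no peak minus any peak, was 0.448, 0.121 and -0.0558 percentage points in WT and -0.657, -0.988 and -0.575 in cKO. It was below 0 in 3 of 3 cKO libraries and the groups did not overlap, with means of 0.171 ± 0.256 and -0.740 ± 0.218. Both classes had similar spans, with medians of 756 kb and 733 kb, and a median of 3 and 5 other protein-coding genes within 500 kb. With the stronger 50% of each list, the mean in cKO was 0.0891 and so changed sign, and in WT it was 0.768.

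**Figure D3:**
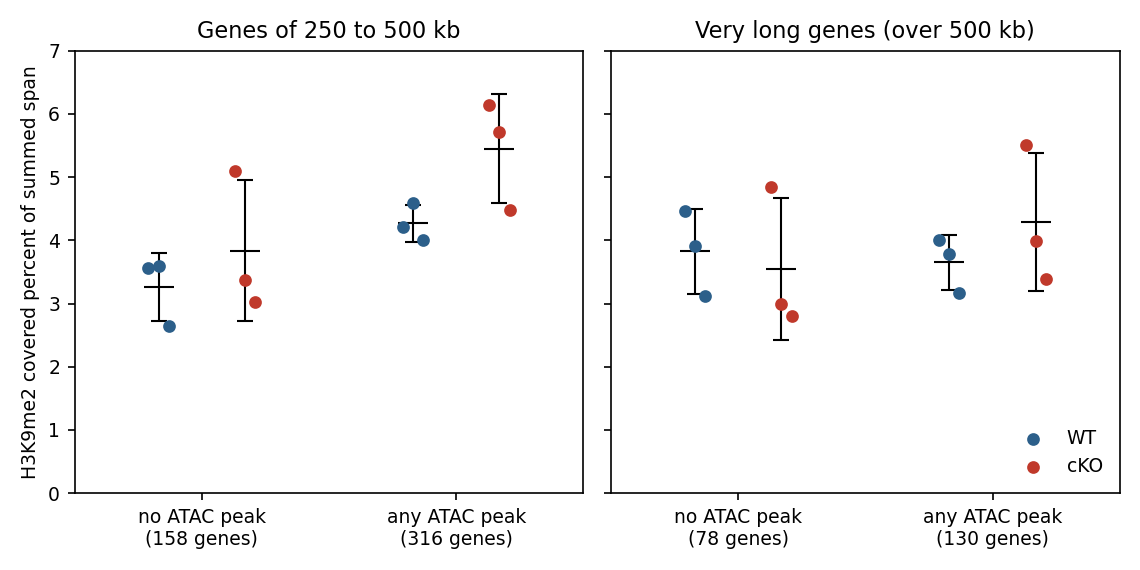
H3K9me2 covered percent of the summed span for genes with no ATAC peak and with any, in genes of 250 to 500 kb (left) and very long genes (right). Each point is 1 library, bars are mean ± SD (n = 3). In very long genes without an ATAC peak the cKO mean of 3.55% lies below the WT mean of 3.83%, and in the other 3 pairs the cKO mean is the higher one.

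The split was different in shorter genes. Genes without an ATAC peak had more H3K9me2 than genes with one in 6 of 6 libraries in each class under 100 kb, in 1 of 6 from 100 to 250 kb and in 0 of 6 from 250 to 500 kb. In genes of 250 to 500 kb it was -1.004 ± 0.366 percentage points in WT and -1.61 ± 0.673 in cKO. The cKO minus WT difference of this split was -0.911 in very long genes and between -0.683 and -0.187 in the 5 shorter classes, and the differences between classes were not tested.

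More ATAC peaks went with a larger cKO minus WT difference. It was -0.276 percentage points in the 78 genes with no peak, 0.334 in the 72 genes with 1 to 2, 0.829 in the 35 with 3 to 5 and 1.32 in the 23 with 6 or more. In relative coverage the same differences were -0.237, -0.0896, 0.00703 and 0.116, so that genes with 1 to 2 peaks turned below 0. In the 23, coverage was 6.21%, 5.45% and 4.36% in cKO 1 to 3 and 4.16%, 4.37% and 3.53% in WT 1 to 3. cKO 3 lay within the WT range there, so these groups overlapped. The difference was above 0 in 23 of 23 genes, against 107 of the 130 with any peak. In genes of 250 to 500 kb with a peak it was above 0 in 281 of 316. Gm37013, Gm38666 and Gm38667, which overlap and share their ATAC peaks, each count among the 23. Across the 208 genes, Spearman's correlation between the cKO minus WT difference and tumour ATAC density was 0.530, and with span it was -0.314. Within cKO libraries coverage and tumour ATAC density had correlations of 0.314 to 0.432, and within WT libraries -0.0477 to 0.118. The genes' windows of 50 kb were split in the same way, pooled over all genes. In the 176 windows with a tumour ATAC peak, mean coverage was 7.12%, 6.41% and 4.86% in cKO 1 to 3 and 4.46%, 4.82% and 3.801% in WT 1 to 3, and the groups did not overlap. In windows without one it was 3.92 ± 1.112% and 3.72 ± 0.532%, and they did overlap. Inside the 83 genes that had both kinds, windows with a peak had 0.706, 0.994 and 0.615 percentage points more than windows without in cKO 1 to 3, and 0.0727, 0.6997 and 0.120 more in WT 1 to 3, averaged over genes. These values overlapped between the groups, and the cKO minus WT value was above 0 in 54 of the 83 genes.

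Upward differences are given first, by smallest limma p, each with a limma adjusted p of 0.650 over all genes tested. Smyd3 (chromosome 1, 178951960 to 179518053), a gene for a lysine methyltransferase, had 5.18%, 7.67% and 4.36% in cKO 1 to 3 and 1.51%, 1.99% and 2.91% in WT 1 to 3. All 3 cKO values lay above all WT values, with a difference of 3.60 ± 1.44 percentage points (SE) and an unadjusted limma p of 0.0449. Ank2 (chromosome 3, 126921607 to 127500347), encoding an ankyrin that ties membrane proteins to spectrin, had 4.88%, 4.80% and 3.37% against 2.27%, 2.34% and 1.29%. Rarb (chromosome 14, 16430839 to 17082331), a retinoic acid receptor gene, had 4.66%, 2.403% and 2.67% against 1.26%, 1.09% and 0.743%. In Ank2 and Rarb, too, the groups did not overlap.

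The remaining 3 were Plcb1, Unc13c and Ptprk. Plcb1 (chromosome 2, 134786164 to 135475258) had 2.60%, 1.57% and 2.65% in cKO and 0.618%, 0.764% and 0.569% in WT. Unc13c (chromosome 9, 73479422 to 74008155), which primes synaptic vesicles, had 4.76%, 2.60% and 2.74% against 1.17%, 1.74% and 1.30%. Ptprk (chromosome 10, 28074820 to 28597397), a receptor-type tyrosine phosphatase gene, had 5.93%, 5.03% and 4.51% against 2.16%, 3.98% and 2.38%. Their groups did not overlap either. Of the 6, Unc13c had no ATAC peak, Plcb1 had 3 in spleen only, and Smyd3 had the most in tumour, 6.

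The 6 with lower coverage in cKO and the smallest limma p, again each with a limma adjusted p of 0.650, were led by Adgrb3 (chromosome 1, 25067476 to 25834772), an adhesion G-protein-coupled receptor gene. It had 5.46%, 2.65% and 1.88% in cKO 1 to 3 and 6.11%, 6.41% and 6.14% in WT 1 to 3, a difference of -2.89 ± 1.57 (SE). WT values lay close together and all above cKO. Lrrc4c (chromosome 2, 96318169 to 97631672), which encodes a synaptic ligand of netrin-G, had 4.95%, 3.01% and 3.52% against 6.61%, 6.43% and 5.23%. Adgrl3 (chromosome 5, 81019085 to 81827825), a latrophilin gene, had 5.46%, 3.66% and 3.54% against 8.27%, 5.90% and 5.83%. Neither of these overlapped between groups.

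In the other 3 a cKO library lay inside the WT range. Iqcm (chromosome 8, 75448687 to 75984508) had 5.37%, 3.53% and 3.87% in cKO and 7.83%, 6.73% and 5.25% in WT. Khdrbs2 (chromosome 1, 32172602 to 32705224), an RNA-binding protein gene, had 3.01%, 1.29% and 1.73% against 4.11%, 4.11% and 2.66%. Ctnna2 (chromosome 6, 76881637 to 77979815), the α-catenin gene of neurons, had 4.30%, 2.27% and 2.35% against 6.53%, 5.85% and 3.05%. In each of the 3 it was cKO 1 that overlapped. None of the 6 had a tumour ATAC peak, and 4 had 1 in spleen. Of the 208 very long genes, 119 (57.2%) had no tumour peak. In the model with the spread on gene length and relative coverage, Adgrb3 and Lrrc4c had the lowest limma adjusted p, 0.301 each.

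**Figure D4:**
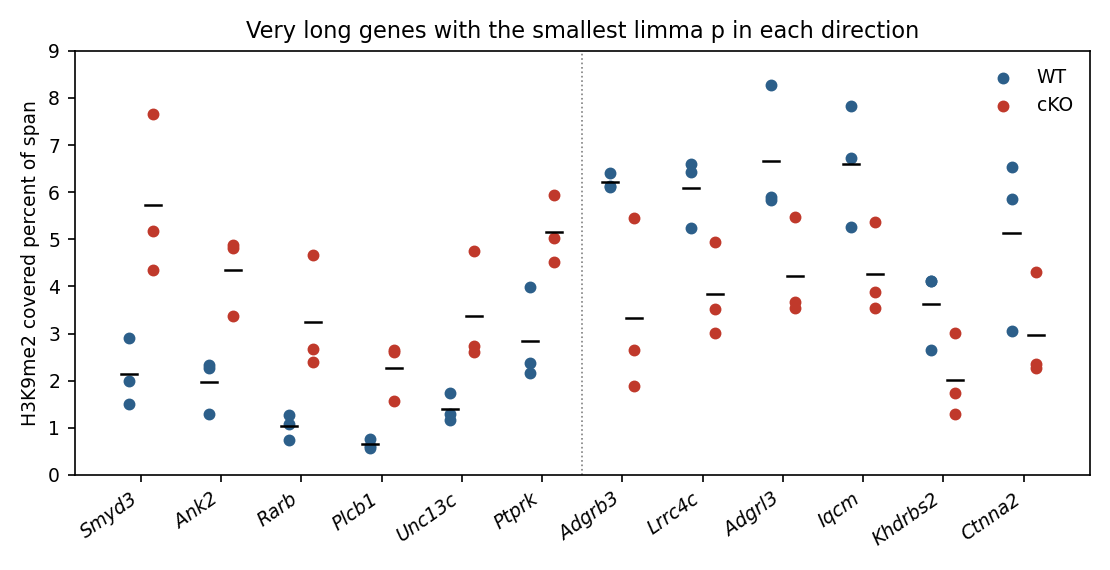
H3K9me2 covered percent of the span in each WT and cKO library for the 6 very long genes with the smallest limma p in each direction; bars are group means, and the dotted line separates the directions. Values do not overlap between groups in the 6 genes on the left and in Adgrb3, Lrrc4c and Adgrl3, and cKO 1 reaches into the WT range in the other 3.

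Functional lists differed in the direction of the cKO minus WT difference, which is given here with how many of each list's genes had an ATAC peak. The lists were chosen with earlier results of these data known, so their counts are a description only. The list of signalling and cytoskeleton genes used by lymphocytes had 14 very long members, among them the sialyltransferase gene St6galnac3. All 14 had an ATAC peak, and together they had 0.99997 tumour peaks per 100 kb. Their H3K9me2 coverage was 6.93%, 7.15% and 4.98% in cKO 1 to 3 and 5.43%, 4.90% and 4.46% in WT 1 to 3. cKO 3 lay within the WT range. Coverage was higher in cKO in 14 of 14 genes, against 138 of the 208 and 107 of the 130 with an ATAC peak. Groups did not overlap in 4 of the 14, all higher in cKO, against 29 of the 130 and 11.0% of all genes tested. In relative coverage they did not overlap in 2 higher and 1 lower. There the 130 had 19 higher and 18 lower, and all genes tested 7.86% and 2.86%. Whether the list differs from other very long genes with an ATAC peak was not tested. The median difference was 1.69 percentage points, against 0.645 over the 208 genes and 1.23 over all genes tested. In relative coverage these medians were 0.162, -0.0257 and 0.151. In this list Inpp4b had 7.48%, 6.80% and 5.80% in cKO and 4.79%, 4.27% and 3.93% in WT, and Elmo1 had 4.85%, 6.995% and 5.44% against 3.32%, 4.29% and 3.11%, neither overlapping. Lpp had 7.05%, 6.998% and 6.50% against 6.36%, 4.95% and 3.32%. Arhgap26 (6.67 ± 1.81% and 5.22 ± 0.422%) overlapped, and the smallest differences were those of St6galnac3 (7.10 ± 1.36% and 6.93 ± 0.426%) and Exoc4 (8.30 ± 1.46% and 7.96 ± 0.761%), which were below 0 in relative coverage.

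The list of transcription and RNA-binding factors had 20 members, of which Nav2 is a cytoskeletal protein and Smyd3 and Hdac9 are chromatin enzymes. Coverage was higher in cKO in 17 of the 20, and 17 of the 20 had an ATAC peak. Their median difference was 1.29, against 1.23 over all genes tested, and in relative coverage 0.172 against 0.151. Groups did not overlap in 8 of the 20, all higher in cKO, against 11.0% of all genes tested and 15.9% of the very long genes. In relative coverage they did not overlap in 8 higher and 2 lower. There the very long genes had 10.1% and 20.8%, and all genes tested 7.86% and 2.86%. Nfia had 8.89%, 7.87% and 7.56% in cKO against 6.63%, 4.80% and 5.13% in WT. Foxp2 had 1.73 ± 0.540% and 0.395 ± 0.219%. The lower 3 were Khdrbs2, Esrrg (6.68 ± 1.34% and 7.61 ± 0.789%) and Zfp804b (2.10 ± 1.14% and 3.09 ± 1.29%). Intracellular scaffolds, kinases and phosphodiesterases were higher in 21 of 30 with a median of 0.464, below the 1.23 over all genes tested. In relative coverage their median was -0.0432, against 0.151. Pde4b had 4.996 ± 1.47% and 3.44 ± 0.855%. Nell1 (5.48 ± 1.85% and 6.39 ± 1.54%) and the vesicle calcium sensor gene Syt1 (3.64 ± 1.73% and 4.49 ± 0.655%) were at the lower end.

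Cell adhesion and synapse formation was the largest list and had a median difference below 0. Its 40 members had 11 tumour ATAC peaks, or 0.0246 per 100 kb, and 20 of them had no ATAC peak in either library. Their summed span was covered to 4.96%, 3.24% and 2.92% in cKO 1 to 3 and 4.79%, 4.21% and 3.41% in WT 1 to 3. cKO 1 lay above all WT libraries and the other cKO libraries below all of them. Coverage was lower in cKO in 25 and higher in 15, with a median difference of -0.442. Groups did not overlap in 3 of the 40 with lower coverage and 1 with higher. Among the very long genes tested these shares were 2.42% and 15.9%, and among all genes tested 1.13% and 11.0%. In relative coverage groups did not overlap in 18 lower and 1 higher. There the very long genes had 20.8% lower and 10.1% higher, and all genes tested 2.86% and 7.86%. The 78 very long genes with no ATAC peak had 25 lower and 3 higher. Whether the list differs from other very long genes was not tested. Dscam, a homophilic adhesion gene, was highest in difference, with 8.00%, 4.62% and 4.65% in cKO against 3.68%, 2.56% and 3.24% in WT. The teneurin gene Tenm4 had 5.08 ± 1.75% and 3.997 ± 0.242%. Csmd1 had 5.53%, 3.40% and 2.82% in cKO against 6.84%, 6.56% and 4.17% in WT.

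By median difference in percent, other neuronal lists lay between these, with -0.243 for neurotransmitter receptors. In relative coverage the medians were -0.280 for adhesion and synapse formation, -0.165 for axon guidance and -0.315 for neurotransmitter receptors. Axon guidance and growth factor signals had a median difference of -0.0952, with 6 higher and 9 lower. Slit3, a guidance ligand gene, had 9.85%, 6.31% and 5.47% against 5.23%, 4.69% and 4.49%, without overlap. The receptor kinase gene Alk had 4.56 ± 1.97% and 2.82 ± 0.963%, the netrin receptor gene Unc5d 5.11 ± 1.08% and 6.39 ± 2.34%, and the neuregulin gene Nrg3 3.05 ± 0.720% and 4.25 ± 0.927%. Neurotransmitter receptors (7 members) had no ATAC peak in any gene and were higher in 3 and lower in 4. Grm8 had 1.26%, 1.25% and 1.35% in cKO against 0.679%, 0.190% and 0.184% in WT, without overlap. Grm5 had 3.18 ± 2.26% and 1.91 ± 0.764%, a difference of -0.0167 without cKO 1, while Grik2 (2.45 ± 1.40% and 4.23 ± 1.35%) and Grm7 (3.91 ± 1.15% and 4.57 ± 1.39%) were lower in cKO.

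Ion channels and their subunits were higher in 8 of 11, with a median of 0.676, below the 1.23 over all genes tested. In relative coverage their median was -0.0803, against 0.151. The acid-sensing channel gene Asic2 had 3.59 ± 1.88% in cKO and 2.35 ± 0.255% in WT, and Trpm3 2.63 ± 1.83% and 1.52 ± 0.395%. The potassium channel gene Kcnd2 had 1.67 ± 1.14% and 3.29 ± 1.81%, and its auxiliary subunit gene Dpp10 3.29 ± 1.07% and 4.85 ± 0.792%. Receptor-type protein tyrosine phosphatases were higher in 4 of 6, with Ptprn2 at 4.97 ± 1.10% and 3.62 ± 0.232%. Ptprd, the longest of all, was lower without overlap, with 4.65%, 3.50% and 2.48% in cKO against 5.85%, 4.66% and 5.11% in WT. Ptprt had 6.22 ± 1.95% and 6.51 ± 0.946%. The 2 with lower means, Ptprd and Ptprt, were the 2 without an ATAC peak.

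**Figure D5:**
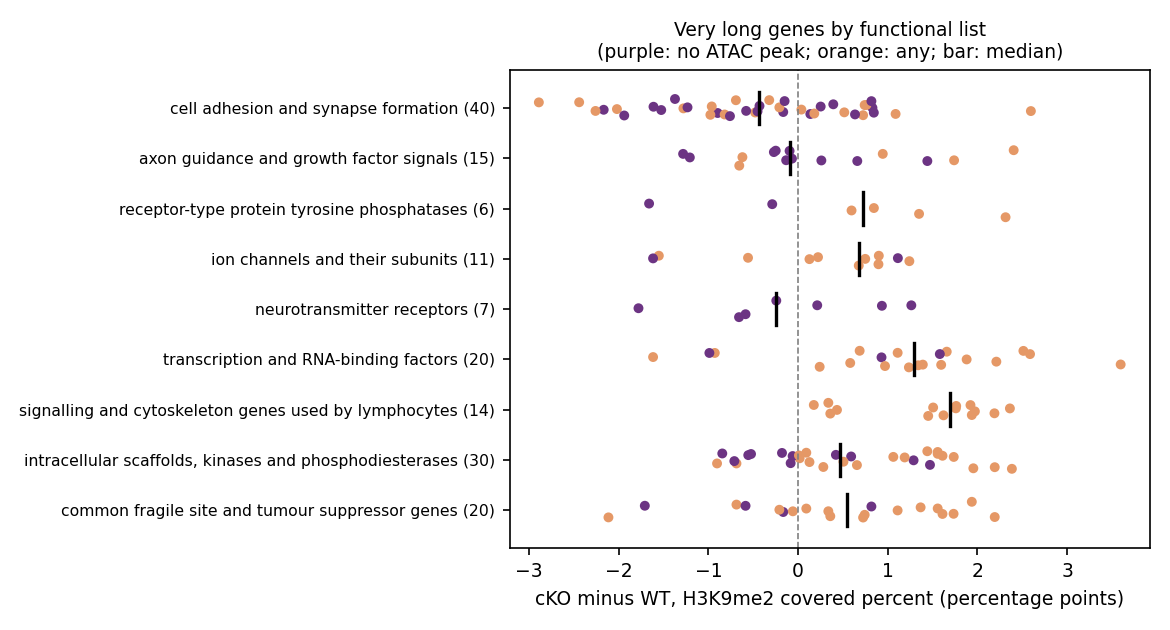
cKO minus WT difference in H3K9me2 covered percent (percentage points, means of 3 libraries each) for the members of 9 functional lists, with 1 point per gene and a bar at the list's median; vertical scatter has no meaning and a gene can be in more than 1 list. All 14 genes on the lymphocyte list lie right of 0, and 25 of the 40 adhesion and synapse genes lie left of it.

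Common fragile site and tumour suppressor genes were higher in 13 of 20, with a median of 0.542, below the 1.23 over all genes tested. In relative coverage their median was -0.0795, against 0.151. Wwox had 6.91%, 7.36% and 5.69% in cKO against 4.003%, 5.87% and 4.87% in WT, and Nbea 4.85 ± 1.48% and 2.91 ± 1.17%. Nbea was also placed on the list of genes used by lymphocytes, but its use in Treg was not tested here. Dpyd, a pyrimidine catabolism gene, had 3.60 ± 1.22% and 5.72 ± 2.19%, and Naaladl2 had 3.44%, 2.66% and 2.25% against 5.43%, 4.61% and 3.44%. In the latter, the highest cKO value lay just under the lowest WT value. The 59 very long genes in no list were higher in 47, with a median of 0.994, or 0.0699 in relative coverage. An ATAC peak was present in 37 of these 59 and in 16 of the 20 fragile site and tumour suppressor genes. The same held for 19 of 30 scaffold, kinase and phosphodiesterase genes, 5 of 15 axon guidance genes and 9 of 11 ion channel genes.

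The 5 longest genes had moderate coverage in both groups. Ptprd is given above. Cntnap2, a neurexin family gene, had 4.08%, 2.83% and 2.06% in cKO against 2.60%, 2.31% and 1.88% in WT. The adhesion gene Lsamp had 5.14%, 2.66% and 2.24% against 4.56%, 3.53% and 2.57%, Lrp1b 3.77%, 2.36% and 2.26% against 3.39%, 2.98% and 2.52%, and Macrod2 3.42%, 2.31% and 2.07% against 2.57%, 2.88% and 2.52%. The groups overlapped in these 4. In the 53 genes over 1 Mb the cKO minus WT difference of the summed span was -0.108. Just inside the length threshold were Edil3 (501.8 kb), Dock1 (503.0 kb) and Samd12 (503.4 kb), with WT coverage of 0.779 ± 0.717%, 2.02 ± 0.753% and 2.61 ± 0.952%. Just outside were Dnm3 (495.9 kb), Lrrc7 (494.8 kb) and Cacna1e (494.0 kb), with 7.93 ± 0.694%, 3.41 ± 1.57% and 3.02 ± 1.05%.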

How the data were processed

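H3K9me2 (6 libraries) and ATAC (2) were compared as peak lists. HOMER peaks were called by the authors separately for each library and without a control, per the file headers. Trim Galore 0.6.6, Bowtie2 2.4.2, SAMtools 1.11 and mm10 are named in the submitters' processing notes. The deposited columns are a tag signal, a peak score in tags, fold ratios and p-values of the caller, a focus fraction for ATAC and the region size. Scores ranked peaks within a list. The headers report 384612 to 468160 H3K9me2 peaks as called, more than were deposited. Covered percents measure local enrichment and not the amount of the mark.

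Peaks were merged per library, and the covered percent of each RefSeq gene span (GRCm38.p6) was computed. ATAC peaks were counted at 1 bp of overlap. Genes with 90% or more of their span in stretches of 100 kb or more free of any listed peak were not analysed (393 autosomal genes, 2 over 500 kb). With group as its term, limma 3.58.1 in R 4.3.3 (eBayes, trended) tested genes with a mean of 1% or more, with Benjamini-Hochberg adjustment at 0.05. The fit was also run on simulated data, with shifts larger than any difference in the very long genes. That run does not show what the fit can find at the sizes seen here. Sums over very long genes carry no test. Genes were named by limma p (6 each way), WT level (6 each end), ATAC density (8, and the 3 longest without a peak), length (5), the threshold, and the 2 largest and 2 smallest differences of 9 lists. The genes and lists were chosen with earlier results of these data known. Some genes that this rule names are not reported here.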

Additional observations from a re-analysis of the deposited data

How the results depend on the processing

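Under 12 alternatives to the model without leaving out a library, 0 very long genes passed limma's adjusted threshold, and the same held without each library in turn; only the fit without a filter on low coverage called any gene, 6 among 21887, none of them very long. Replicate numbers did not pair the libraries (correlations of deviations 0.0214, -0.0172 and 0.0115), and with a replicate block 0 genes passed, as without it. The summed difference between cKO and WT was -0.107 in units of autosomal coverage, -0.108 over 1 Mb, and ran from -0.327 (without cKO 1) to 0.717 (without cKO 3) when 1 library was left out. For genes without minus genes with an ATAC peak, the cKO value was -0.971 with tumour peaks only, -0.165 in autosomal units, -0.390 with lists of equal length and 0.0891 with the stronger 50% of peaks, where WT had 0.768. The cKO minus WT value of that split was -0.208 in autosomal units and -0.673 with equal lists. Leaving out 1 library gave 0.0325 to 0.284 in WT, -0.822 to -0.616 in cKO and -1.02 to -0.772 for their difference. ATAC density was 0.0460 for tumour lists shortened to the spleen number, and 0.0505 (tumour) and 0.0290 (spleen) for the stronger 50%. Of the 56 genes fitted by name, 13 changed direction under at least 1 alternative. In autosomal units, under both spread models, these were Exoc4 (-0.283), St6galnac3 (-0.256), Sox6 (-0.128), Thsd4 (-0.142) and Tmem132d (-0.255). With lists of equal length Exoc4 had -1.99, St6galnac3 -1.01, Sox6 -0.283 and Thsd4 -1.27. With the stronger 50% of peaks Ptprt had 0.327, Nell1 0.421, Esrrg 0.415, Macrod2 0.0099950 and Thsd4 -1.10. Without 1 library, differences ran from -0.398 to 1.06 in Exoc4, -0.535 to 0.816 in St6galnac3, -1.32 to 0.623 in Ptprt, -1.80 to 0.0464 in Nell1, -0.0167 to 2.13 in Grm5, -2.23 to 0.0259 in Unc5d, -0.653 to 0.102 in Lrp1b, -1.11 to 0.344 in Lsamp, -0.470 to 0.207 in Macrod2, -0.270 to 1.97 in Thsd4 and -0.100 to 0.946 in Tmem132d. The causes were not tested. Depth limits what a gene with few peaks can show, and a single library per tissue leaves the ATAC values without a replicate check.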
